A study of Mus musculus with 4 samples.

Results

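The 10 genes described here are the p53 tumour suppressor Trp53, its regulators Mdm2, Mdm4 and Cdkn2a, and the p53 target genes Cdkn1a, Ccng1, Zmat3, Trp53inp1, Sesn1 and Phlda3. They were taken by symbol from the 37311 gene identifiers of the count files, and all 10 were found. All 10 were also among the 13809 genes that passed the filter on low counts. The genes were chosen by function, with their ratios of footprints to total RNA and their replicate differences already known, so both are a description here and carry no test. The cells were J1 mouse embryonic stem cells, a line of the 129S4/SvJae strain, grown without feeder cells on gelatin in a serum medium with leukaemia inhibitory factor (LIF). All libraries came from cells infected with short hairpin RNAs against eIF4A3, the helicase of the exon junction complex. The labels name 2 hairpins, sheIF4a3-2 and sheIF4a3-3, and do not say which replicate received which. Cells were selected in puromycin (1 μg/mL) for 3 days, taken at day 4.5, and exposed to cycloheximide at 0.1 mg/mL for 1 min before lysis. The 4 libraries were 2 of ribosome protected fragments (RPF) and 2 of total RNA. Unperturbed cells were not analysed here, so every statement is about knockdown cells.

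p53 is a transcription factor that is kept at a low level by Mdm2, a ubiquitin ligase that marks it for degradation, and by Mdm4, a relative of Mdm2 that binds p53 and blocks its activity. Mdm2 is itself a p53 target, which closes a feedback loop, and the Arf product of Cdkn2a binds Mdm2 and frees p53. Active p53 induces genes that stop the cell cycle, foremost Cdkn1a, which encodes the cyclin-dependent kinase inhibitor p21. Mouse embryonic stem cells are known for abundant p53 and for a weak G1 arrest after DNA damage.

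Gene counts per library ran from 7615277 to 9434987. Before normalisation, 3 counts corresponded to between 0.318 and 0.394 CPM (counts-per-million gene counts of a library). The CPM levels of genes below were normalised between libraries. The targeted gene, Eif4a3, was counted 1640 times in RPF replicate 1, 1325 times in RPF replicate 2, and 1229 and 975 times in total RNA, with no control level beside these values. The summed level of 5 pluripotency markers (Pou5f1, Sox2, Nanog, Esrrb and Zfp42) was between 3032 and 4220 CPM in the 4 libraries. Summed markers of fibroblasts reached 5.16 to 12.9 CPM, of trophectoderm 4.80 to 9.44 CPM, of primitive endoderm 19.8 to 36.9 CPM, and of neuroectoderm and mesoderm 26.2 to 42.3 CPM. All 5 sums, that of the pluripotency markers included, were higher in both RPF libraries than in both total RNA libraries. Of the defining markers, Postn (fibroblasts) and Elf5 (trophectoderm) had no count in either total RNA library. Other markers of these lists were counted there, at most for Thy1 (31 and 25 counts) and Tfap2a (23 and 20). Sox1, listed for neuroectoderm, was not found by symbol, and Neurod1 alone stood at 20.85 to 36.74 CPM. The contribution of cells of these other types to the results was not tested. In bulk RNA, fewer cells of a type and less RNA per cell cannot be told apart.

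Translation starts at an AUG whose surroundings affect how well ribosomes use it, so the start sites of the 10 genes are shown first, from the GENCODE M21 transcript with the longest coding sequence. Each line runs from 6 bases before the start codon to 1 base after it, and capitals mark the start codon.
Trp53: gactggATGa
Mdm2: aggccaATGt
Mdm4: gccaaaATGa
Cdkn1a: ggcaccATGt
Cdkn2a: gggagcATGg
Ccng1: gtcaagATGa
Zmat3: tgcctgATGa
Trp53inp1: ttaacaATGt
Sesn1: attgtcATGg
Phlda3: gtgcccATGa

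A purine at position -3 and a G at position 4, counting the A of the start codon as 1, are the bases known to favour a start codon. Of the 10 genes 6 had the purine, against 84.6% of 19054 protein-coding genes of the annotation. The G was present in 2 of the 10, Cdkn2a and Sesn1, against 49.9% of those genes. Trp53, Mdm2, Zmat3 and Phlda3 had neither base. Trp53 has another in-frame start codon at codon 4, which is followed by a G.
Trp53, both start codons in capitals: gactggATGactgccATGg

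The leaders and coding shares also differed among the genes. Upstream ATGs in the 5' untranslated region were present in 9 of 10 genes, against 50.2% of 20180 coding genes, with Trp53 as the exception. Sesn1 had 6 of them in a leader of 1087 bases and Cdkn1a 3 in 266 bases. The coding sequence made up 43.5% of the exon bases of Cdkn2a, 41.6% of Sesn1, 29.0% of Trp53 and 28.9% of Mdm2. It made up 25.2% of Ccng1 and 24.3% of Phlda3, and at the low end 13.5% of Cdkn1a, 11.1% of Trp53inp1, 9.95% of Mdm4 and 7.63% of Zmat3. The median of tested protein-coding genes was 34.7%. Footprints fall mainly on coding sequence, while total RNA reads fall on whole exons.

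Trp53 itself, the gene of the transcription factor, had more footprints than total RNA reads in every pairing of libraries. Its level in CPM, normalised by trimmed mean of M-values (TMM), was 1201 and 943 in RPF replicates 1 and 2 and 230.4 and 204 in total RNA replicates 1 and 2. The 2 fractions did not overlap. The fitted log2 ratio of RPF to total RNA, called the ratio below, was 2.30 ± 0.20 (SE of the fit, n = 2 libraries per fraction), a level 4.94-fold higher in RPF. This ratio lay above that of 99.2% of tested protein-coding genes. Part of the Trp53 transcript cannot be told from the pseudogene Trp53-ps: 36.3% of the 28-base stretches of its coding sequence occur there, and none outside the coding sequence. Trp53-ps was listed at 0 counts in all 4 libraries. How reads from shared stretches were counted, and their part in the ratio, was not tested.

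Mdm2, the main ubiquitin ligase of p53, showed no separation of the fractions. Its level was 460 and 723 CPM in RPF replicates 1 and 2 and 471 and 633 CPM in total RNA replicates 1 and 2. The higher value in each fraction belonged to replicate 2, and the ranges overlapped. The ratio was 0.10 ± 0.26 and changed sign to -0.25 without RPF replicate 2 and to -0.10 without total RNA replicate 1. With scaling by library size only it was -0.32, where the median of all tested genes was -0.46. The direction of the Mdm2 ratio is therefore not determined by these libraries.

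Mdm4, the relative of Mdm2 that restrains p53 activity, stood lower in RPF. Its level was 167 and 224 CPM in RPF replicates 1 and 2 against 411 and 533 CPM in total RNA replicates 1 and 2. The fractions did not overlap, and the ratio was -1.27 ± 0.21, a level 2.42-fold lower in RPF. The pseudogene Mdm4-ps holds 29.9% of the 28-base stretches of the Mdm4 coding sequence, and had at most 4 counts in a library. The annotated exons of Mdm4 sum to 14798 bases for a coding sequence of 1473 bases, although the transcript with that coding sequence has only 1914.

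Cdkn2a, the gene of the kinase inhibitor p16INK4a and of Arf, was the least abundant of the 10 in total RNA by CPM. Its RPF counts were 298 (replicate 1) and 264 (replicate 2), its total RNA counts 106 and 93. The level was 38.5 CPM in either RPF library and 10.4 and 9.60 CPM in total RNA. The fractions lay far apart relative to their replicates, with a ratio of 1.95 ± 0.18 (3.85-fold higher in RPF). p16INK4a and Arf are read from the shared exons in different frames, and a count per gene does not separate them.

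**Figure D1:**
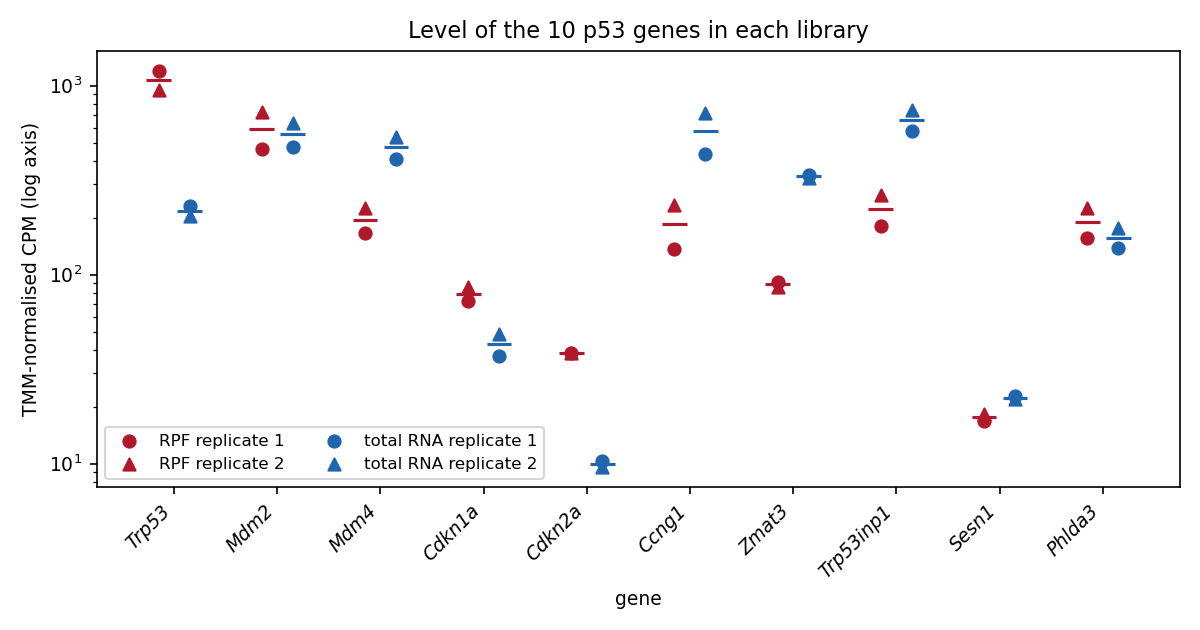
Level of each of the 10 genes in TMM-normalised CPM on a log axis, with circles for replicate 1, triangles for replicate 2 and a bar at the mean of each fraction. Trp53, Cdkn1a and Cdkn2a stand higher in both RPF libraries (red) than in both total RNA libraries (blue). Mdm4, Ccng1, Zmat3, Trp53inp1 and, by less, Sesn1 stand lower, and the fractions of Mdm2 and Phlda3 overlap.

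Cdkn1a, whose product p21 inhibits cyclin-dependent kinases, was among the less abundant of the 10 genes by CPM and was higher in RPF. Its RPF counts were 561 (replicate 1) and 590 (replicate 2), its total RNA counts 377 and 472, which gave 72.5 and 86.0 CPM against 36.9 and 48.7 CPM. The fractions did not overlap and the ratio was 0.89 ± 0.18. Scaling by library size only brought it to 0.46, and it then no longer passed the threshold. That scaling moved the median ratio of all tested genes to -0.46. Of the 28-base stretches outside its coding sequence 14.9% occur in other genes, and none inside it, and their part in the ratio was not tested.

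Ccng1, Zmat3 and Trp53inp1, 3 targets of p53, had the lowest ratios of the group. Ccng1 encodes cyclin G1, which brings a phosphatase to Mdm2. Its level was 136 and 233 CPM in RPF replicates 1 and 2 against 434 and 719.8 CPM in total RNA replicates 1 and 2. The fractions did not overlap although each spread widely, and the ratio was -1.65 ± 0.32.

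Zmat3, an RNA-binding protein that regulates splicing, was at 91.5 and 86.2 CPM in RPF replicates 1 and 2 and at 338 and 325 CPM in total RNA replicates 1 and 2. Both fractions were tight, and the ratio of -1.90 ± 0.14 (3.73-fold lower in RPF) had the smallest SE of the 10. Trp53inp1, a stress-induced protein of the autophagy and cell death pathways, was at 181 and 264 CPM in RPF replicates 1 and 2. Its total RNA levels were 572 and 744 CPM, the highest of the group by CPM, and its ratio was -1.56 ± 0.24. Neither gene's fractions overlapped.

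Sesn1 and Phlda3 had ratios near 0. Sesn1 encodes sestrin 1, an inhibitor of mTORC1 signalling. Its RPF counts were 130 (replicate 1) and 126 (replicate 2), its total RNA counts 233 and 212, or 16.8 and 18.4 CPM against 22.8 and 21.9 CPM. The fractions did not overlap, but the ratio of -0.35 ± 0.19 did not pass. Scaling by library size only brought it to -0.77, past the threshold, while the median ratio of all tested genes moved to -0.46. Phlda3, a repressor of the kinase AKT, was at 156 and 224 CPM in RPF replicates 1 and 2 and at 138 and 176 CPM in total RNA replicates 1 and 2. Those ranges overlapped, and the ratio was 0.28 ± 0.21. It fell to -0.15 with library size only and rose past the threshold without RPF replicate 1 (0.53).

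By edgeR's quasi-likelihood fit over all genes, with Benjamini-Hochberg adjustment and a threshold of 0.05, 7 of the 10 genes passed, 3 as higher in RPF and 4 as lower. Of all tested genes 41.7% passed, 20.5% as higher and 21.2% as lower. The fractions did not overlap for 8 of the 10 genes, against 72.8% of all tested genes. The choice of the genes used this contrast, so nothing is read from these counts. The median ratio of the 10 was -0.12, against -0.024 over all tested genes, and it became 0.067 without RPF replicate 1. Of the 7 genes, 6 passed in the same direction under each of the 13 alternative settings, the exception being Cdkn1a with library size only.

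The spread of ratios within the group was wide whether or not gene structure was taken into account. Over 12643 tested protein-coding genes the ratio rose with the coding share of the exons (Spearman's rho 0.21, across genes, which are not independent replicates). Over the 10 genes rho was 0.62, a description of points that share the same 4 libraries. At the coding share of Zmat3 the fitted curve of all coding genes stood at -0.48, and at that of Mdm4 at -0.43. After that curve was removed, the ratio of Zmat3 was -1.45 ± 0.14, of Trp53inp1 -1.19 ± 0.23 and of Mdm4 -0.87 ± 0.21. Ccng1 stood at -1.51 ± 0.32, Cdkn1a moved up to 1.21 ± 0.18, and Trp53 was at 2.37 ± 0.20. The corrected ratio of Trp53 lay above that of 99.2% of coding genes, and those of Zmat3 and Ccng1 above 5.84% and 4.99%. The order of the 10 genes by ratio changed in one place after correction, where Zmat3 and Ccng1 exchanged ranks.

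**Figure D2:**
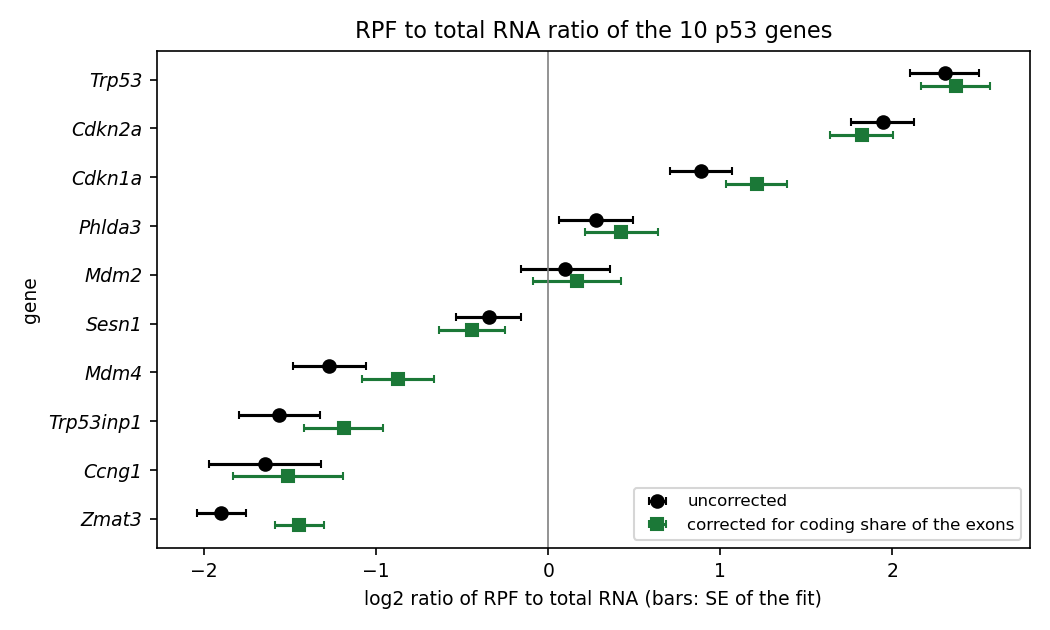
Log2 ratio of RPF to total RNA with its SE for each gene, uncorrected (black circles) and after removal of the trend with coding share over all coding genes (green squares). Trp53 (2.30 and 2.37) and Cdkn2a lie at the top both times, and Zmat3 moves from -1.90 to -1.45.

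Levels can be compared between genes only per length. For this, RPF counts were divided by the coding length and total RNA counts by the summed exon length, and each library was scaled to the same total over protein-coding genes. In total RNA, Ccng1 was highest (547 and 982 in replicates 1 and 2), followed by Mdm2 (409.7 and 597), Trp53inp1 (391 and 551) and Phlda3 (389.9 and 542). Each of these 4 overlapped its neighbour in that order. Trp53 came next at 252 and 242, separate from the genes on both sides with this length only. Mdm4 (123 and 173) and Zmat3 (131 and 136) overlapped, and Cdkn1a (45.9 and 65.7), Cdkn2a (39.2 and 39.3) and Sesn1 (25.3 and 26.3) followed without overlap. The median of tested coding genes was 23.6 and 26.3.

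In RPF the order was headed by Trp53, at 1041 and 939, apart from all others. Phlda3 (419 and 693), Mdm2 (318 and 575), Trp53inp1 (256 and 429), Ccng1 (156 and 307), Cdkn1a (154 and 209), Mdm4 (115 and 178) and Zmat3 (107 and 115) followed, and adjacent genes of these 7 overlapped. Cdkn2a (76.8 and 88.2) and Sesn1 (10.3 and 12.96) closed the order without overlap. The order in total RNA depends on the length used, a choice tried after the data were seen. With the length of the transcript that has the longest coding sequence, Mdm4 headed it at 589 and 826, overlapping Mdm2 (417 and 606). Trp53, at 357 and 342, then lay within the ranges of Ccng1 (339 and 609), Trp53inp1 (290.2 and 409) and Phlda3 (263 and 365). The log2 difference of these per-length levels between fractions was 2.01 for Trp53, 1.70 for Cdkn1a and 1.07 for Cdkn2a. It was -1.72 for Ccng1 and -1.15 for Sesn1, against a median of -0.52 over coding genes. The length chosen for total RNA decides the value for Mdm4, which was -0.013 with all annotated exons and -2.27 with the transcript length (median -0.42). With that length Trp53 stood at 1.503, Ccng1 at -1.03, Sesn1 at -0.52 and Phlda3 at 0.83.

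Between replicates, most p53 target genes were higher in replicate 2 in both fractions, while Trp53 was higher in replicate 1 in both. The comparison is of 1 library with 1 library and carries no test. The log2 level of replicate 1 minus replicate 2 was -0.77 in RPF and -0.73 in total RNA for Ccng1, and -0.65 and -0.43 for Mdm2. It was -0.54 and -0.38 for Trp53inp1, and -0.53 and -0.36 for Phlda3. For Mdm4 it was -0.43 and -0.37, and for Cdkn1a -0.25 and -0.40. These 6 of the 10 genes were thus lower in replicate 1 in both kinds of library, against 35.1% of all tested genes. Of the 10 genes, 3 were higher in replicate 1 in RPF, against 49.5% of all tested genes, and 4 in total RNA, against 48.6%.

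For Trp53 the difference was 0.35 in RPF and 0.18 in total RNA. Zmat3 was level between replicates at 0.087 and 0.057, and its sign in RPF turned with scaling by library size only (-0.049). Cdkn2a differed by 0.0015 in RPF and 0.11 in total RNA, and its RPF value turned to -0.13 with library size only. With that scaling Trp53 (0.21) was the only one of the 10 genes higher in replicate 1 in RPF. With the main scaling Sesn1 was the only one of the 10 with opposite signs, at -0.13 in RPF and 0.060 in total RNA. The sign was the same in both fractions for 68.5% of all tested genes. None of the 10 genes reached a 2-fold difference between replicates in either fraction. Of all tested genes 8.36% did so in RPF and 2.49% in total RNA. The median size of the difference was 0.39 in RPF and 0.37 in total RNA for the 10 genes, against 0.29 and 0.21 over all tested genes.

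**Figure D3:**
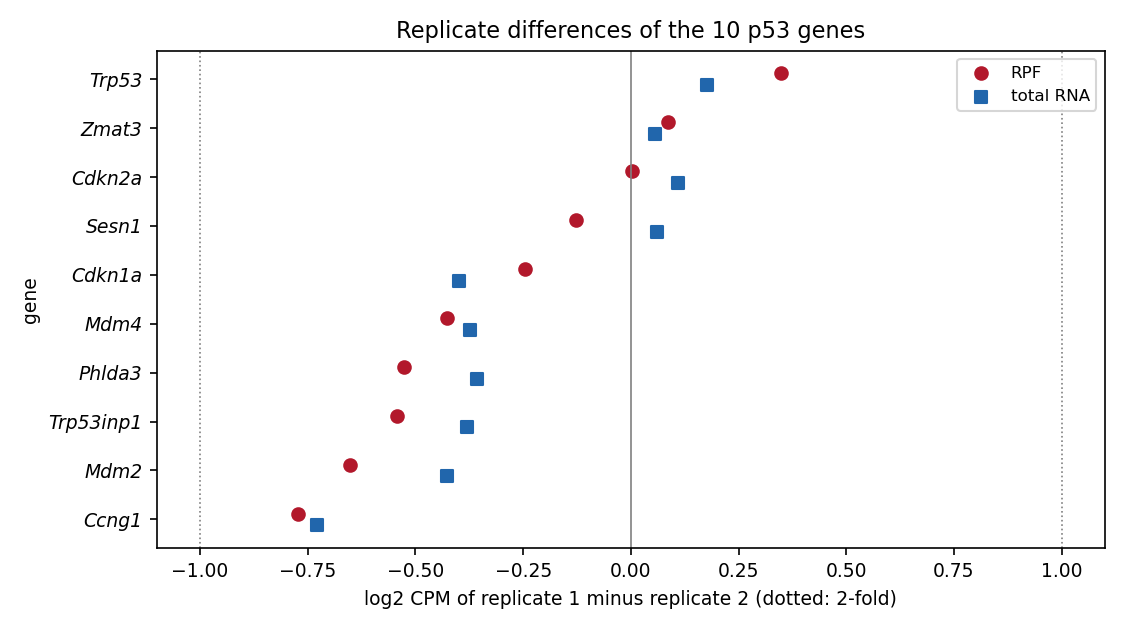
Log2 CPM of replicate 1 minus replicate 2 for each of the 10 genes, in RPF (red circles) and total RNA (blue squares), with dotted lines at a 2-fold difference. Ccng1, Mdm2, Trp53inp1, Phlda3, Mdm4 and Cdkn1a lie left of 0 in both fractions, and Trp53 lies right of 0 in both.

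Further p53 targets were counted in the same way. Of 20 further targets that act in arrest, repair and metabolism, 12 were lower in replicate 1 in both fractions and 2 were higher in both. Among all tested genes 35.1% were lower in both and 33.5% higher in both. The 2 higher in both were Pcna, the replication clamp (0.43 in RPF and 0.53 in total RNA), and Plk3, a stress kinase (0.42 and 0.24). The rest of the 20 had opposite signs in the 2 fractions, such as Ddb2 (0.26 in RPF and -0.45 in total RNA) and Tigar (-0.33 and 0.023). Sfn, the 14-3-3 sigma protein of the G2 arrest, was lower in replicate 1 at -0.57 and -0.59, and Btg2, an antiproliferative gene, at -0.32 and -0.47. Of 17 apoptosis and survival targets 8 were lower in both and 3 higher in both. Of 34 tested genes that act on p53 or Mdm2, 12 were lower in both and 13 higher in both. Whether the replicates received different hairpins is not stated in the labels, and the part of the hairpin in these differences was not tested.

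A p53 response element is built of decamers, and the promoter windows of the genes were searched for the decamer consensus of p53, which reads as itself on either strand. Windows of 300 bases, from 250 before to 50 after each RefSeq start (GRCm38.p6), were found for 8 of the 10 genes, 12 windows in all. A decamer was present in 5 of the 12 windows, each of a different gene, against 8.36% of 32851 windows. The first base of the decamer is given from the start site.
Trp53, -75: GGACTTGCCC
Mdm2, -186: GAACTTGCCT
Ccng1, -185: GGGCAAGCCT
Sesn1, downstream start, -173: AAGCTTGTTT

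The only window of the 10 genes with 2 decamers at a spacing of at most 13 bases was that of an upstream start of Cdkn1a, at chr17:29090729-29091028 on the plus strand. Such pairs were present in 0.0731% of all windows. It is printed because Cdkn1a is the best known arrest target of p53, with the 2 decamers in capitals, at -73 and -51 and 12 bases apart. Only exact matches were marked. The bases directly after the second decamer, tgacatgttc, depart from the consensus at their first base and were left unmarked. A match of letters is not evidence of binding, and the windows leave out more distant elements.
Cdkn1a, upstream start: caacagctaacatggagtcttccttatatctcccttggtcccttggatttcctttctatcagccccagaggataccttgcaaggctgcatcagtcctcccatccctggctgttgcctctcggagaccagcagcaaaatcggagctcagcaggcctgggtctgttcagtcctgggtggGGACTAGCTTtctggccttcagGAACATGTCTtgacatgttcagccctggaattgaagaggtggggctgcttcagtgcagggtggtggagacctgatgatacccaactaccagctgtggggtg

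The rest of the pathway was described in 3 lists of 72 genes in all. Of 20 arrest, repair and metabolism targets, 6 were higher in RPF, 2 lower and 12 did not pass (20.5% and 21.2% of all tested genes higher and lower), with a median of 0.19 against -0.024 over all tested genes. By edgeR, Sfn had a ratio of 1.45 ± 0.26 (adjusted p = 0.00502) and Pcna of 1.28 ± 0.24 (adjusted p = 0.00601). Gadd45a, a DNA damage-induced growth arrest protein, was at 0.85 ± 0.15 (edgeR adjusted p = 0.00467), and did not pass with library size only (0.42). Ptp4a3, a phosphatase (-1.03 ± 0.14, edgeR adjusted p = 0.00192), and Btg2 (-1.12 ± 0.20, edgeR adjusted p = 0.00517) were lower. Polk, a translesion polymerase, did not pass (-0.63 ± 0.24, edgeR adjusted p = 0.0754). The counts of this list turned to 2 higher and 5 lower with library size only, where all 13809 tested genes had 1223 higher and 4961 lower. After correction for coding share 3 of the list were higher, and 2589 of all genes in that fit. Without total RNA replicate 1 the median ratio of the list was 0.135.

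Of 17 apoptosis and survival targets, 0 were higher in RPF (all tested genes 20.5%), 6 lower (all 21.2%) and 11 did not pass. The median ratio was -0.37, and the median coding share was 22.1%, against 34.7% over all tested genes. After correction for coding share the median ratio was -0.41, and for coding share and exon length -0.40. Trp53i11 (-1.31 ± 0.19, edgeR adjusted p = 0.00246), the receptor Eda2r (-1.30 ± 0.21, edgeR adjusted p = 0.00327) and Ei24 (-1.24 ± 0.15, edgeR adjusted p = 0.00137) were lowest. The highest ratios at 10 CPM or more were those of Bid, a BH3 protein (0.14 ± 0.19), the death receptor Tnfrsf10b (0.13 ± 0.13) and Rps27l (0.11 ± 0.20), none of which passed, and all 3 were below 0 with library size only. At an unadjusted p under 0.05 edgeR had 0 of the 17 higher, and DESeq2 had 0 at an adjusted p under 0.05. The number lower was 11 with library size only, where 4961 of all 13809 tested genes were lower. Without total RNA replicate 2 the median ratio of the list was -0.25.

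Of 35 genes whose products act on p53 or Mdm2, 34 were tested, with 10 higher in RPF (all tested genes 20.5%), 7 lower (all 21.2%) and a median of 0.036. Trp63, a p53 relative, was at or below 2 counts in each library and was not tested. The nucleolar protein Npm1, which binds Arf, was higher (1.26 ± 0.27, edgeR adjusted p = 0.0099), as was the p53 inhibitor Ppp1r13l (1.06 ± 0.25, edgeR adjusted p = 0.0147). The acetyltransferase Kat5 was also higher (0.91 ± 0.15, edgeR adjusted p = 0.00344). Among the genes at a mean of at least 10 CPM, Cop1, another ubiquitin ligase of p53, was lowest (-1.76 ± 0.20, edgeR adjusted p = 0.00128), before the methyltransferase Setd7 (-1.18 ± 0.28, edgeR adjusted p = 0.0136) and the kinase Hipk2 (-1.16 ± 0.29, edgeR adjusted p = 0.0181). Without total RNA replicate 2 the ratios were 1.10 for Npm1, 0.95 for Ppp1r13l, -0.96 for Hipk2 and -0.87 for Setd7, and these genes did not pass. The median ratio of the list was 0.018 there, 0.026 without total RNA replicate 1 and 0.0745 without RPF replicate 1. Setd7 also did not pass after correction for coding share (edgeR adjusted p = 0.0541) or for coding share and exon length (edgeR adjusted p = 0.0741). Their lowest edgeR adjusted p came from the fit with replicate number as a block, a pairing that the labels do not state. It was 1.44e-24 for Npm1, 5.69e-06 for Ppp1r13l, 2.63e-07 for Hipk2 and 4.11e-09 for Setd7. Scaling by library size gave 2 higher and 13 lower, where all 13809 tested genes had 1223 higher and 4961 lower. With that scaling Ppp1r13l again did not pass (edgeR adjusted p = 0.0839).

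**Figure D4:**
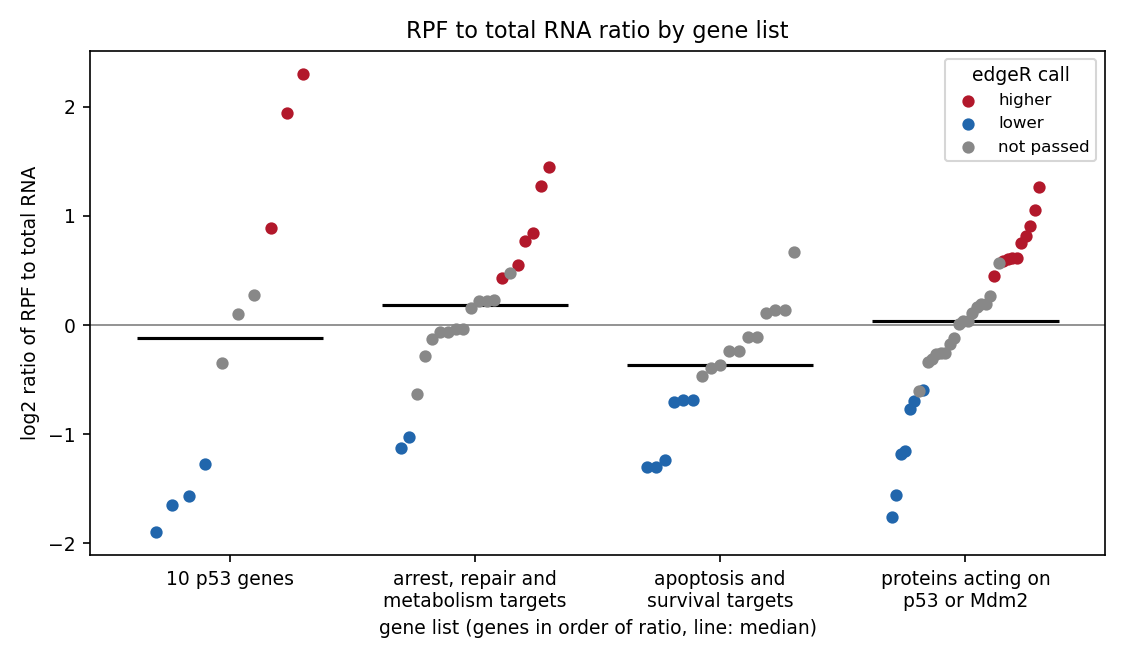
Log2 ratio of RPF to total RNA for the 10 genes and 3 further p53 pathway lists, with 1 point per tested gene in order of its ratio, colours for the edgeR call and a line at each list's median. The apoptosis and survival targets have 6 genes called lower and 0 called higher, with a median of -0.37.

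The genes whose profiles over the 4 libraries lay nearest to that of Trp53 were Snrpd3, C1qbp and Fbxl6. The measure was the Euclidean distance between centred log2 CPM over 4 libraries, among 8731 other protein-coding genes averaging 10 CPM or more. Snrpd3, a core protein of the spliceosome, had a distance of 0.12 and levels of 511 ± 118 against 108 ± 11.2 CPM (SD, n = 2 libraries per fraction, RPF first). C1qbp, a mitochondrial matrix protein, followed at 0.153 and Fbxl6, an F-box protein, at 0.226. Nearest to Zmat3 were Gatad1 (0.107), Fam168a (0.111) and Zfp280b (0.127), with ratios of -2.03, -1.87 and -1.88.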

How the data were processed

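The deposited values are raw read counts per gene, 1 file for each of 4 libraries, which the authors did not normalise. Per the submitters' processing notes processing used HTSeq 0.11.2, TopHat2 2.1.1, edgeR 3.26.8 and Bowtie 1.2.3. The annotation release, counted feature, strand setting and joining of the 4 sequencing runs of each RPF library were not stated in the sources used here. Closing tallies (32.0 to 43.4% of all tallied reads) were left out. GENCODE M21 (GRCm38) named 32621 of 37311 identifiers (87.4%); the counts were made on mm9. Members and lists were chosen with earlier results of these data known. edgeR 4.0.16 (R 4.3.3) was run on fraction alone, with filterByExpr (minimum count 10, minimum total 15), TMM and Benjamini-Hochberg adjustment over 13809 genes, two-sided. SE is the size of the log2 ratio over the square root of F. p-values rest on the spread between 2 replicate libraries per fraction, with variance estimates shared in part across genes. The labels do not say whether that spread includes a difference of hairpin. Replicate differences use log2 CPM with a prior count of 2. Coding share is the longest coding sequence over the summed exons; its trend was a loess of span 0.5. Limits from 3 counts cover counting error only. The fit was also run on simulated counts with far fewer changed genes than passed here. That run does not bear on the choice of scaling. Named pathway genes are the 3 highest and 3 lowest ratios of each list at a mean of at least 10 CPM, Eif4a3, genes under 10 counts, and the 3 nearest profiles to Trp53 and to Zmat3. Plk3, Ddb2, Tigar and the replicate values of Sfn, Btg2 and Pcna were chosen after their values were seen. Alternatives were other scalings, filters, DESeq2 1.42.0, coding genes only, structure corrections, replicate number as a block and each library left out; the transcript length was added after seeing the data.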

Additional observations from a re-analysis of the deposited data

How the results depend on the processing

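Over all tested genes the counts of 2835 higher and 2930 lower became 1223 and 4961 with library size only, which moved the median ratio of all genes from -0.024 to -0.46. With replicate number as a block (replicate block) they became 4257 higher and 4365 lower. The labels do not say that a number marks a shared lysate, and the correlation across genes of the replicate difference in RPF with that in total RNA was 0.41. Under the block Phlda3 (0.27, adjusted p = 0.00909 by edgeR) passed among the 10 genes. The other 9 kept their calls, while 10 apoptosis targets and 12 genes acting on p53 or Mdm2 were lower. Leaving out each library in turn, with the lone library of a fraction assumed to vary like the others, gave 1720 to 3341 higher and 1857 to 3440 lower over all genes. For the arrest list this gave 3 to 7 higher, for the apoptosis list 3 to 8 lower, and for genes acting on p53 or Mdm2 3 to 11 higher and 4 to 8 lower. With library size only the arrest list had 2 higher and 5 lower, the apoptosis list 11 lower, and the genes acting on p53 or Mdm2 2 higher and 13 lower. The arrest list had 3 higher with either structure correction. With coding share and exon length together 1 apoptosis target, Tnfrsf10b, was higher and 4 genes acting on p53 or Mdm2 were lower. At a mean of at least 10 CPM, 225 genes differed 2-fold between RPF replicates, in place of 1154, and 64 in place of 344 between total RNA replicates, with fewer genes tested. The cause of the other shifts was not tested. With 2 libraries per fraction and 93 to 298 counts, Cdkn2a and Sesn1 are the members least precisely counted.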
